A study of Mus musculus with 2 samples.

Results

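Integrin and laminin genes were examined across endothelial cells (ECs) of heart and liver and across the other cells captured with them. They were all genes whose symbol starts with Itga or Itgb, except Itgb1bp1 and Itgbl1, or is Lama, Lamb or Lamc followed by 1 digit. This gave 40 of the 21951 listed genes and transgene sequences. The 40 comprised 18 integrin alpha and 9 beta subunits, 5 laminin alpha, 3 beta and 3 gamma chains, and 2 genes that share the symbol pattern but encode no subunit, Itgb3bp (the kinetochore protein CENP-R) and Itgb1bp2 (the muscle protein melusin).

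Integrins are cell surface receptors made of an alpha and a beta subunit that link the cytoskeleton to extracellular matrix or to counter-receptors on other cells. Laminins are trimers of an alpha, a beta and a gamma chain, and with collagen IV and nidogen they form the basement membrane. ECs are known to deposit laminins with an alpha4 or alpha5 chain and to bind them through integrins such as those with an alpha6 subunit, whereas liver sinusoids lack a continuous basement membrane.

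The data came from 1 pooled 10x Genomics library of hashtagged cells from hearts and livers of C57BL/6 mouse pups aged P6-P7. Pups had received 1 dose of 40 mg/kg of 4-hydroxytamoxifen at postnatal day 3, and tissues were taken 3 days later. The labels give Cdh5-CreERT2 and iHadSuRe-Cre as the genotype and name 6 hashtags, for control, iSuRe-Cre and iSuRe-HadCre in each organ. Sorted cells were CD31+ and MbTomato+.

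Cdh5-CreERT2 is a tamoxifen-dependent recombinase driven by an endothelial promoter. The iSuRe-Cre allele couples the MbTomato reporter to continued Cre expression, and iSuRe-HadCre is a variant whose Cre is made only transiently. In the study's schematic both iSuRe groups carry floxed Notch1, which the labels do not mention, and the genotype of the control is not given in the sources used here. The number of pups behind each hashtag was not found either, so every group was 1 sample without a replicate, and no test between groups was possible.

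Levels are UMIs (counted RNA molecules) of a gene, divided by those of all genes in the group and multiplied by 1000000 (CPM), and groups are given in the order control, iSuRe-Cre and iSuRe-HadCre. Intervals in parentheses are exact 95% Poisson intervals for levels, exact conditional intervals for ratios and exact binomial intervals for shares. They cover counting error only, not differences between animals. The heart groups held 254, 435 and 311 ECs with 3030031, 8303637 and 3102952 UMIs, and the liver groups held 54, 858 and 76 ECs with 624048, 9341120 and 682984 UMIs. Control and iSuRe-HadCre liver were thus shallow, and 3 UMIs there correspond to 4.81 and 4.39 CPM.

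The labels were first compared with Notch1, the gene floxed in the iSuRe groups. Notch1 was at 138, 12.6 and 23.2 CPM in heart and at 160, 21.4 and 30.7 CPM in liver, so it was low in all 4 iSuRe groups. WPRE, a sequence of the reporter transcript, was at 562, 63.5 and 1055 CPM in heart and at 396, 105 and 1070 CPM in liver. It was therefore present in both control groups, and lower in iSuRe-Cre than in control. Cdh5, the endothelial cadherin, was at 1310, 975 and 1251 CPM in heart and at 1077, 738 and 921 CPM in liver. Pecam1, which encodes CD31, was at 844, 586 and 860 CPM in heart and at 872, 485 and 858 CPM in liver, and both of these were lowest in iSuRe-Cre liver.

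The groups differed in the kinds of ECs they held. Cells with at least 3 UMIs of Stab2, a scavenger receptor of liver sinusoidal ECs, made up 59.9% of iSuRe-Cre liver (56.5 to 63.2), 19.7% of iSuRe-HadCre liver (11.5 to 30.5) and 1.85% of control liver (0.0469 to 9.89). Control liver instead held 25.9% cells with Gja5 and Vwf, genes of larger vessels, and 22.2% cells with Npr3, a gene of the endocardium. Sinusoidal cells were thus nearly absent from the control group labelled liver. Over all cells within the quality limits, whatever their group, the median was 1 UMI of the control liver hashtag, 28 of the iSuRe-Cre liver hashtag and 2 or 3 of the others, against the minimums of 25 and 140 UMIs. The key from hashtags to samples was taken from the labels and was not tested, and every ratio that uses control liver rests on it. Cells with Tcf15 and Fabp4, genes of capillary ECs, made up 82.7%, 81.8% and 74.9% of the heart groups and 40.7%, 21% and 35.5% of the liver groups. Levels within these capillary-marked cells are given beside those of the whole groups where the makeup could set them.

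The cell types that held each gene were examined over all cells within the quality limits, whatever their hashtag. Marker UMIs were used to gate 7704 Cdh5-positive ECs and 10 kinds of cells without Cdh5 UMIs. Most cells of those 10 gates carried no single hashtag (63.8% of the neutrophil-lineage gate and 94.7% or more of the others), so their organ and genotype are unknown. Of the 38 members with at least 50 UMIs over the 11 gates, 5 were highest in ECs and 33 elsewhere. ECs of all kinds were pooled in this ranking, so a kind of EC given below can exceed the gate named. The remaining members, the leukocyte integrins Itgax and Itgad, had 18 and 8 UMIs over the gates.

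The members highest in ECs were Itga6, Itga2, Itga2b, Lama4 and Lamc1. Itga6, a laminin-binding alpha subunit, was at 245 CPM in ECs, 152 (132 to 174) in macrophages and 85.3 (76.5 to 94.8) in basal keratinocytes. Lama4, the alpha chain typical of vascular laminins, was at 185 (181 to 188) CPM in ECs, 97.5 (93.1 to 102) in mesenchymal cells and 3.97 (2.27 to 6.44) in basal keratinocytes. Lamc1, the gamma chain of most laminins, was at 155 (152 to 159) CPM in ECs and 120 (85.8 to 162) in the 27 cells of the smooth muscle gate, and these intervals overlapped. Itga2, a collagen-binding subunit, was at 60 CPM in ECs and 31.5 in keratinocytes, and Itga2b, the platelet subunit, was low everywhere, with 9.28 CPM in ECs.

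Keratinocytes held the highest level of 8 members, among them the epithelial alpha chain Lama3 and the hemidesmosome subunit Itgb4. Lama3 was at 55 CPM there and 11.8 in ECs, a ratio of 4.65 (3.98 to 5.42). Itgb4, which pairs with Itga6 in hemidesmosomes, was at 36.9 against 7.21 CPM, a ratio of 5.12 (4.22 to 6.18). Lama5, Itga3, Itgb5, Itgb6 and Itgae were highest in the same gate, at 48.3, 25, 95, 9.92 and 2.48 CPM. Lamb3, a beta chain known from epithelia, was instead highest in the neutrophil-lineage gate, at 17.2 (10.4 to 26.9) CPM against 10.7 (7.72 to 14.4) in keratinocytes. ECs with Gja5 and Vwf, given below, had higher levels of Lama3 and Itgb4 than keratinocytes.

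The smooth muscle gate held the highest level of another 8 members. Itgb1, the common beta partner, was at 1094 (986 to 1210) CPM there and 875 (867 to 882) in ECs, and at 172 CPM or more in each of the 11 gates. Its collagen-binding partner Itga1 was at 227 CPM in smooth muscle, 145 in ECs and 27.7 or less in the other gates. Itga9, Itga5 and Itga8 were also highest in smooth muscle, at 169, 99.2 and 70 CPM on 58, 34 and 24 UMIs. Lamb2 was at 32.1 (16 to 57.4) CPM there on 11 UMIs and at 28.6 (27.2 to 29.9) in ECs, so its order between them is not set. Itga8, which binds nephronectin, was nearly as high in mesenchymal cells, at 69.4 CPM. Itga7 and Itgb3 led in the smooth muscle gate on 4 and 3 UMIs, too few to place them. ECs with Stab2, given below, had higher levels of Itga8 and, by little, of Itga9 than smooth muscle.

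The remaining members were highest in other gates. Neutrophil-lineage cells had 157 CPM of Itgam, 118 of its partner Itgb2, 113 of the Itgb2 paralogue Itgb2l and 60.8 of Itgal, all leukocyte integrins that were at 3.12 CPM or less in ECs. Mesenchymal cells led for Lama2 at 97.1 CPM and for Lamb1 at 91.2 (86.9 to 95.7) CPM, the latter close to 83.9 (81.6 to 86.3) in ECs. Neural progenitors or glia led for Itgb8 at 104, Lama1 at 52.8 and Itgb3bp at 80 CPM. Erythroid progenitors led for Itga4, a receptor of VCAM1 and fibronectin, at 154 CPM, and macrophages for Itgav, which binds RGD ligands, at 83.6 CPM. Chondrocytes led for the collagen-binding Itga10 and Itga11 and for Itgb7, Lamc3 and Itgb1bp2, all at 19.8 CPM or less. Itgb7, Itgb1bp2 and Lamc3 led on 15, 11 and 7 UMIs. For Lamc3 the ratio to ECs was 2.72 (1.06 to 5.9) in chondrocytes and 1.97 (1.32 to 2.92) in mesenchymal cells, so their order is not set.

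**Figure D1:**
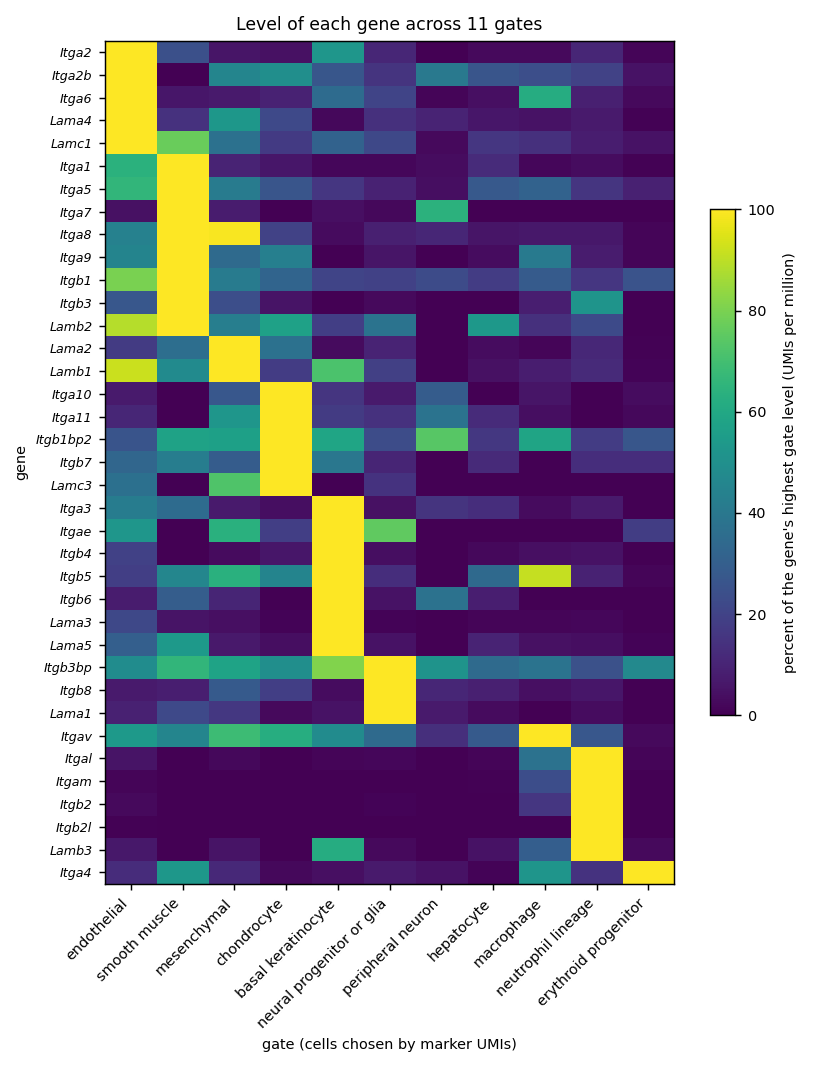
Level of 37 of the 38 genes with at least 50 UMIs (rows) in 11 gates of cells chosen by marker UMIs (columns), as percent of each gene's own highest level in CPM. The upper 5 rows are highest in the endothelial column, the next 8 in smooth muscle, and all others in the remaining columns.

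Known partners had similar profiles over the 11 gates to differing degrees. Pearson's r of log2(CPM + 10) was 0.991 for Itgam with Itgb2 and 0.985 for Itgal with Itgb2. It was 0.875 for Lamb1 with Lamc1, 0.868 for Itga1 with Itgb1 and 0.252 for Itga6 with Itgb1. These values describe 11 gates of 1 library that differ in depth and size.

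Among ECs, the marker-defined kinds differed in several members. Stab2 cells had 115 CPM of Itga8, a ratio of 6.53 (5.96 to 7.16) to the other ECs, and 185 CPM of Itga9, a ratio of 3.11 (2.92 to 3.31). Lamb1 was low in them, at 24.2 CPM and a ratio of 0.259 (0.223 to 0.299). Cells with Gja5 and Vwf had high Lama3, at 90.3 CPM and 8.93 (7.25 to 10.9) times the other ECs, and high Itgb4, at 51.4 CPM and 8.22 (6.23 to 10.7) times. Capillary-marked cells had ratios of 2.02 (1.91 to 2.14) for Lamb1, 1.91 (1.85 to 1.98) for Itga6, 1.85 (1.77 to 1.93) for Lamc1 and 1.84 (1.77 to 1.91) for Lama4. Among the marker-defined kinds, however, Lama4 was highest in Npr3 cells, whereas Lamb1, Itga6 and Lamc1 were highest in capillary-marked cells. Itga1 was lower in Npr3 cells, at 75.5 CPM and a ratio of 0.505 (0.445 to 0.571).

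In the 6 hashtag groups, 28 members had at least 50 UMIs in all. Itgb1 was at 1094, 1014 and 1106 CPM in heart and at 1187, 807 and 1244 CPM in liver. Itga6 was at 354, 365 and 491 CPM in heart and at 204, 146 and 247 CPM in liver, higher in each heart group than in the liver group of the same name. The fibronectin receptor subunit Itga5 was at 70.6, 71.2 and 74.1 CPM in heart and at 68.9, 73.4 and 87.8 CPM in liver, with little difference among groups, and Itgav was at 44.9, 37.8 and 57.4 CPM in heart and at 54.5, 45.2 and 46.9 CPM in liver. Itgb3bp was at 24.4, 45.2 and 31.6 CPM in heart and at 35.3, 36.5 and 39.5 CPM in liver, and it is not an integrin subunit.

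**Figure D2:**
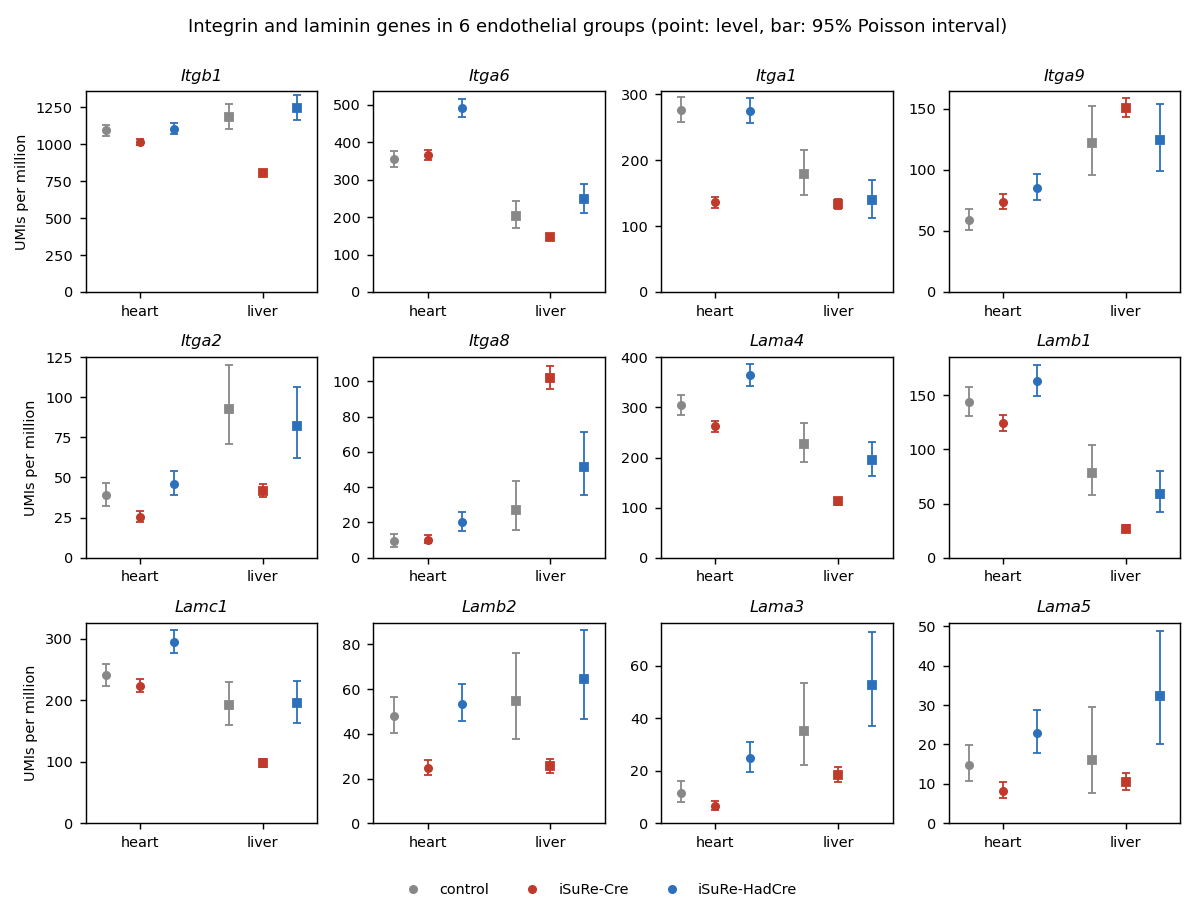
Level in CPM (vertical axis from 0) of 12 integrin and laminin genes in control (grey), iSuRe-Cre (red) and iSuRe-HadCre (blue) ECs of heart (circles) and liver (squares), with exact 95% Poisson intervals as bars. Itga1 is lower in iSuRe-Cre heart than in both other heart groups, and Lamb1, Lamc1 and Lama4 are lowest in iSuRe-Cre liver.

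The iSuRe-Cre group was compared with control in heart. A gene entered each comparison if the smaller group would hold at least 10 UMIs at the mean level of both groups, so that a low gene could enter through the group where it is high. By this rule 1 of the 20 members that passed the filter was at least 2-fold higher and 1 at least 2-fold lower, beside 4.43% and 3.32% of the 11168 genes tested (7.75% in either direction). The median log2 ratio of the members was -0.158, beside -0.0684 over all genes tested. The lower member was Itga1 and the higher was Itgb4.

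Itga1 encodes the alpha subunit of a collagen receptor and was at 276, 136 and 275 CPM in heart and at 179, 133 and 139 CPM in liver. In heart it was low in iSuRe-Cre alone, with a ratio of 0.493 (0.45 to 0.539) to control, whereas iSuRe-HadCre had a ratio of 0.996 (0.905 to 1.1) to the same control cells. Within capillary-marked cells it was at 291, 146 and 280 CPM in heart and at 264, 94.9 and 182 CPM in liver, and the iSuRe-Cre to control ratio was 0.499 (0.454 to 0.549) in heart and 0.359 (0.274 to 0.476) in liver. Over 12 processing alternatives the heart ratio ranged from 0.421 to 0.546, and it fell short of 2-fold at 0.546 with HTODemux, 0.516 with size factors, 0.514 when WPRE was required and 0.504 without cells with Stab2 or Npr3 UMIs. Cells with an Itga1 UMI made up 81.1, 74.5 and 75.6% of the heart groups, and 41.9, 22.2 and 42.4% after thinning every cell to 2000 UMIs. Median depths before thinning were 9100, 16379 and 7322 UMIs. In erythroid progenitors, which should lack the gene, the shares were 5% and 0.206% at a median of 55081 UMIs. Smooth muscle held the highest Itga1 level among the gates, though control and iSuRe-HadCre heart ECs were above it. Its markers summed to 106, 33.5 and 40 CPM in heart and to 131, 65 and 33.7 CPM in liver. Acta2 was the most abundant of them, Myh11 and Cnn1 were at 0 in at least 1 group, and their part in the Itga1 levels was not tested.

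Itga1 lies at chr13:114953096-115101964 on the minus strand of GRCm38, where the genes Pelo and Gm49395 overlap it on the same strand, so some reads could belong to either. The 250 bases before its RefSeq start, chr13:115101965-115102214, are shown 5′ to 3′ because Itga1 had the lowest iSuRe-Cre to control ratio of the members tested in heart. They hold neither TGGGAA, the core of the motif of the Notch effector RBPJ, nor GGGCGG, the GC box, on either strand, and therefore no capitals.
Itga1: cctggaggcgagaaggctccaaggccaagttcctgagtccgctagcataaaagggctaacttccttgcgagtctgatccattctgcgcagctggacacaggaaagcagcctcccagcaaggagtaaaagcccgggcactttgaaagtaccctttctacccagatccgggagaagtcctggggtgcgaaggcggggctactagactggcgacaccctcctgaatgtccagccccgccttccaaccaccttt

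Itgb4 was at 1.98, 5.54 and 9.02 CPM in heart and at 20.8, 8.67 and 20.5 CPM in liver. In heart these levels rested on 6, 46 and 28 UMIs, and the ratio to control was 2.8 (1.19 to 8.02) for the iSuRe-Cre group, beside 4.56 (1.85 to 13.5) for iSuRe-HadCre. Over the alternatives the iSuRe-Cre ratio ranged from 1.56 to 7.66, and it was below 2-fold, at 1.56, without cells with Stab2 or Npr3 UMIs. The iSuRe-HadCre ratio ranged from 3.48 to 11.7 over the 11 alternatives that gave one. Within capillary-marked cells control heart held 0 Itgb4 UMIs and iSuRe-HadCre heart 20, so no ratio is given there. The markers of keratinocytes, where Itgb4 was also high, summed to 30.4, 58 and 107 CPM in heart and to 22.4, 52.6 and 10.2 CPM in liver. Krt14 was the most abundant of these 5 genes, Trp63 and Dsp were at 0 in at least 1 group, and the part of such RNA in the Itgb4 levels was not tested.

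For iSuRe-HadCre against the same control in heart, 4 of the 22 members that passed the filter were at least 2-fold higher and 1 at least 2-fold lower, beside 6.1% and 1.27% of the 11373 genes tested (7.37% in either direction). The median log2 ratio of the members was 0.421, beside 0.133 over all genes tested. The higher members were Itga4, Itga8, Itgb4 and Lama3, and the lower was Itga2b, at 10.9, 5.78 and 3.54 CPM in heart and at 17.6, 20.1 and 22 CPM in liver, with a ratio of 0.325 (0.148 to 0.66). With the HTODemux hashtag calls this ratio was 0.546, which is not past 2-fold. Of the higher members, the ratio of Itga4 was 1.69 with HTODemux, that of Lama3 1.78 with a hashtag minimum of 10 UMIs and that of Itga8 0.908 with one of 50. That of Itgb4 stayed past 2-fold in the 11 alternatives that gave a ratio. With 6 UMIs in control, however, Itgb4 passed the filter only through the iSuRe-HadCre group, so its staying past 2-fold carries no weight. Of the platelet genes Pf4, Ppbp, Gp9 and Gp1bb, Pf4 was the most abundant and the others were at 0 in at least 1 group. They summed to 15.8, 17.7 and 4.83 CPM in heart and to 1.6, 21.4 and 7.32 CPM in liver, and their part in the Itga2b levels was not tested.

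Itga4 and Itga8 rested in large part on single cells in this group. Itga4 was at 3.63, 2.77 and 21.9 CPM in heart and at 27.2, 14.5 and 33.7 CPM in liver, but 1 iSuRe-HadCre heart cell held 35 of that group's 68 UMIs, and without it the level was 10.6 CPM. That cell had 58667 UMIs, 64 of them of keratinocyte markers. For Itga8, 1 cell with 44 UMIs of mesenchymal markers held 32 of 62 UMIs, and without it the level was 9.67 CPM, beside 9.24 in control. Neither cell was removed by the hashtag rule, and doublets were not called in any other way.

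The iSuRe alleles were then compared with each other in heart, where 6 of the 23 members that passed the filter were at least 2-fold higher and 0 at least 2-fold lower, beside 7.05% and 2.29% of the 11416 genes tested (9.34% in either direction). The median log2 ratio of the members was 0.601, beside 0.217 over all genes tested. Of all genes past 2-fold here 75.5% were higher, and 56.8% with size factors in place of total UMIs. The higher members were Itga1, Itga3, Itga4, Lama3, Lama5 and Lamb2. Size factors left 4 members past 2-fold, with Itga1 at 1.77 and Lamb2 at 1.9, and Itga3 was at 1.74 when WPRE was required in the iSuRe groups. For Itga1 the ratio was 2.02 (1.85 to 2.21), and it ranged from 1.77 to 2.49 over the processing alternatives.

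Laminin chains made up most of the rest. Lamb2, a beta chain of vascular and synaptic basement membranes, was at 47.9, 24.7 and 53.5 CPM in heart and at 54.5, 25.5 and 64.4 CPM in liver, lowest in the iSuRe-Cre group of each organ. Its iSuRe-HadCre to iSuRe-Cre ratio was 2.17 (1.76 to 2.67) in heart and 2.53 (1.79 to 3.5) in liver, where it was 1.44 with HTODemux. Lama5, the alpha chain of many mature basement membranes, was at 14.9, 8.31 and 22.9 CPM in heart and at 16, 10.4 and 32.2 CPM in liver and had ratios of 2.75 (1.95 to 3.89) and 3.1 (1.86 to 4.97). Lama3, the epithelial alpha chain, was at 11.6, 6.62 and 24.8 CPM in heart and at 35.3, 18.5 and 52.7 CPM in liver and had ratios of 3.75 (2.62 to 5.4) and 2.85 (1.93 to 4.09), the latter 1.19 with HTODemux. Over the alternatives Lama5 stayed past 2-fold in both organs, and Lama3 in heart. In liver Lama5 passed the filter only through iSuRe-HadCre, so its staying past 2-fold there carries no weight. By the levels above, all 3 chains were highest in iSuRe-HadCre in both organs. For Lamb2, however, the intervals of control and iSuRe-HadCre overlapped, at 40.4 to 56.3 and 45.7 to 62.3 CPM in heart and 37.7 to 76.1 and 46.8 to 86.5 CPM in liver. Its order between these groups is thus not set. Such intervals also overlapped for Lama5 in both organs and for Lama3 in liver. Over all samples pooled, all 3 were higher in cells with Gja5 and Vwf than in the other marker-defined ECs, and the 5 large-vessel markers, led by Sox17, summed to 408, 214 and 380 CPM in heart and to 896, 360 and 761 CPM in liver, lowest in iSuRe-Cre in both organs. Their part in these levels was not tested over the whole groups. Against control, Lama3 was 2.15 (1.42 to 3.3) times as high in iSuRe-HadCre heart, with the loss given above, and Lama5 2.01 (0.913 to 4.75) times in iSuRe-HadCre liver, where the interval includes 1 and the mean over cells gave 0.867.

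Within capillary-marked cells these 3 chains were also highest in iSuRe-HadCre. There Lama3 was at 8.01, 6 and 27.2 CPM in heart and at 30.2, 36.9 and 70.7 CPM in liver, Lama5 at 11.8, 6.14 and 26 CPM in heart and at 11.3, 15.8 and 43.7 CPM in liver and Lamb2 at 45.4, 24.6 and 57.3 CPM in heart and at 60.5, 32.1 and 63.9 CPM in liver. The iSuRe-HadCre to iSuRe-Cre ratios in liver within those cells were 1.91 (1.13 to 3.1) for Lama3, 2.76 (1.35 to 5.29) for Lama5 and 1.99 (1.14 to 3.32) for Lamb2. Against control, the iSuRe-HadCre ratio of Lamb2 was 1.26 (0.981 to 1.63) in heart and 1.06 (0.515 to 2.2) in liver. That of Lama3 in liver was 2.34 (0.995 to 6.1). These intervals include 1, so the order of control and iSuRe-HadCre is not set there. Lama5 in these liver cells rested on 3, 39 and 13 UMIs, and no ratio to control is given for iSuRe-HadCre. Lamb3 had only 21 UMIs over the 6 groups.

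**Figure D3:**
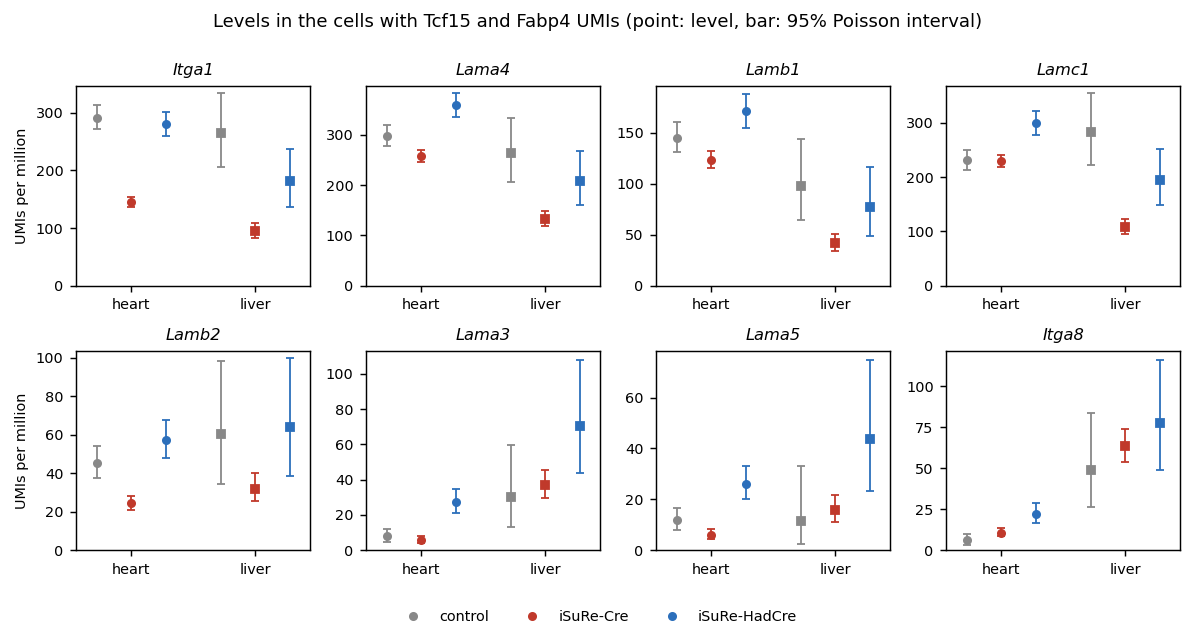
Level in CPM (vertical axis from 0) of 8 genes within the cells with Tcf15 and Fabp4 UMIs of control (grey), iSuRe-Cre (red) and iSuRe-HadCre (blue) ECs of heart (circles) and liver (squares), with exact 95% Poisson intervals as bars. Itga1 is lowest in iSuRe-Cre in both organs, and the intervals of control and iSuRe-HadCre liver are wide because these hold 22 and 27 cells.

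In liver, iSuRe-Cre and control differed in makeup as given above, and makeup and genotype cannot be told apart over the whole groups. There 1 of the 18 members that passed the filter was at least 2-fold higher and 6 at least 2-fold lower, beside 3.89% and 6.74% of the 8106 genes tested (10.6% in either direction). The median log2 ratio of the members was -0.736, beside -0.104 over all genes tested. The lower members were Lama2, Lama4, Lamb1, Lamb2, Itga2 and Itga3, and the higher was Itga8. Lamb1 and Itga3 stayed past 2-fold under every alternative, and each of the others fell short under at least 1. Itga3, however, passed the filter only through control liver, where it is high, so its staying past 2-fold carries no weight. For Lamb2 the ratio was 0.468 (0.326 to 0.691), or 0.53 (0.307 to 0.972) within capillary-marked cells and 0.782 with HTODemux. Of all genes past 2-fold here 36.6% were higher, a share that became 66.9% with no filter on low counts and 71.7% without the cell holding most UMIs of each gene, which takes away more of the smaller control group.

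The chains of the vascular laminin were all lowest in iSuRe-Cre liver. Lama4 was at 304.9, 263 and 365 CPM in heart and at 228, 112 and 195 CPM in liver, with an iSuRe-Cre to control ratio of 0.494 (0.414 to 0.593) in liver. Lamb1, the beta chain of most laminins, was at 144, 124 and 163 CPM in heart and at 78.5, 26.8 and 58.6 CPM in liver, with a ratio of 0.341 (0.25 to 0.473). Lamc1 was at 241, 224 and 295 CPM in heart and at 192, 97.2 and 195 CPM in liver, with a ratio of 0.506 (0.417 to 0.617), just short of 2-fold. In heart the same ratios were 0.861 (0.797 to 0.931), 0.866 (0.773 to 0.971) and 0.928 (0.852 to 1.01).

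Within capillary-marked cells these chains were again lowest in iSuRe-Cre among the liver groups. Lama4 was at 298, 258 and 359 CPM in heart and at 264, 132 and 209 CPM in liver, Lamb1 at 145, 123 and 171 CPM in heart and at 98.2, 41.8 and 77.4 CPM in liver and Lamc1 at 231, 229 and 299 CPM in heart and at 283, 108 and 195 CPM in liver. The liver ratios of iSuRe-Cre to control there were 0.5 (0.385 to 0.657) for Lama4, 0.425 (0.274 to 0.682) for Lamb1 and 0.382 (0.295 to 0.501) for Lamc1, from 22 control and 180 iSuRe-Cre cells. Over the processing alternatives the Lamb1 ratio ranged from 0.297 to 0.498 and the Lama4 ratio from 0.381 to 0.796.

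Lamb1 lies at chr12:31265234-31329644 on the plus strand of GRCm38. Its flank chr12:31265043-31265233, before the RefSeq start, is shown because Lamb1 was low both in iSuRe-Cre liver and in Stab2 cells. Capitals mark 2 matches of TGGGAA and 2 of GGGCGG, the latter on the opposite strand. Of 32851 promoter windows of 300 bases, 25.6% held TGGGAA and 35.7% GGGCGG on either strand, beside 5 and 12 of the 28 windows of the 25 members in the table. A match describes letters and is not a binding site.
Lamb1: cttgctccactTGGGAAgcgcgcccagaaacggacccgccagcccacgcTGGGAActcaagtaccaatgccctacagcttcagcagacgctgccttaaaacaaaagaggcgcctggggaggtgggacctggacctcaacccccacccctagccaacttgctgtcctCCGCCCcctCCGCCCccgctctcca

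Among the integrins, Itga2 was at 38.9, 25.4 and 46.1 CPM in heart and at 92.9, 41.8 and 82 CPM in liver, with a ratio of 0.449 (0.34 to 0.603) between iSuRe-Cre and control liver. Within capillary-marked cells that ratio was 0.555 (0.356 to 0.899), short of 2-fold. Itga3, a laminin-binding subunit, was at 3.63, 2.53 and 6.12 CPM in heart and at 27.2, 5.14 and 19 CPM in liver, with a ratio of 0.189 (0.107 to 0.35), and of 0.408 (0.147 to 1.4) on 19 and 5 UMIs within capillary-marked cells, where the interval includes 1. Over the whole groups both were highest in control liver. Itgb1 had a ratio of 0.68 (0.63 to 0.734) in the same comparison. Lama2, the alpha chain of muscle and nerve laminins, was at 7.92, 13.4 and 12.9 CPM in heart and at 75.3, 7.81 and 20.5 CPM in liver, with a ratio of 0.104 (0.071 to 0.153), but 23 of the 47 UMIs of control liver lay in 1 cell with 93 UMIs of neuron, 61 of endocardial and 47 of mesenchymal markers. Without that cell control liver was at 38.5 CPM. Without cells with Stab2 or Npr3 UMIs the ratio was 0.736, and over the alternatives it ranged from 0.0607 to 0.736.

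**Figure D4:**
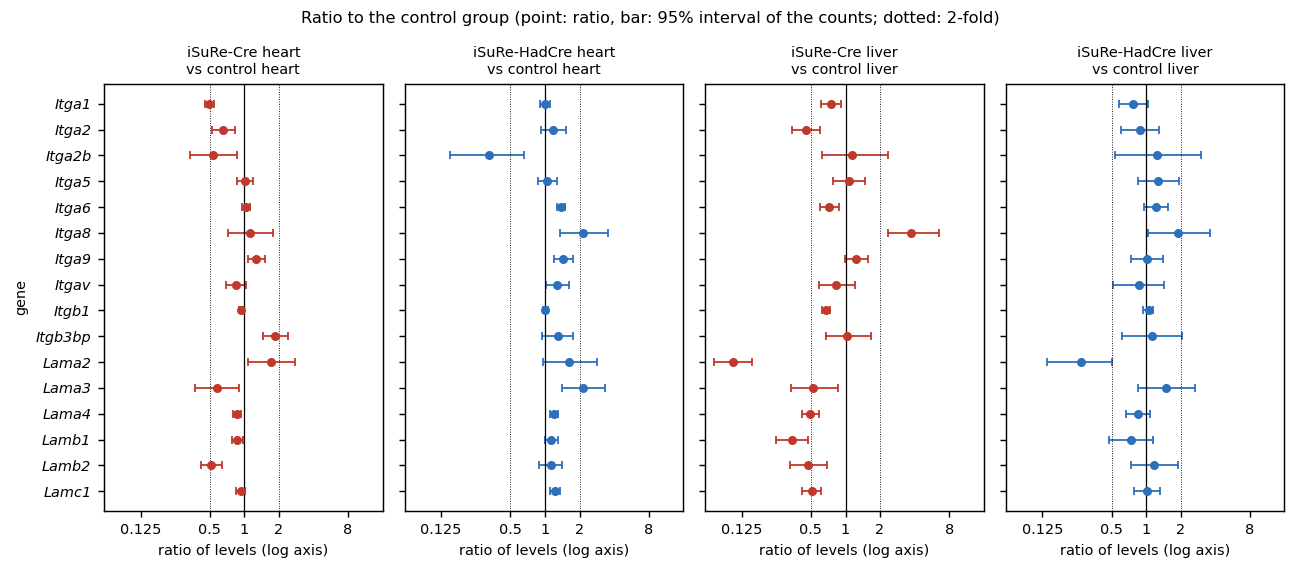
Ratio of levels to the control group of the same organ (horizontal log axis; the dotted lines mark 2-fold) for the 16 genes that passed the filter in all 4 comparisons shown, with exact conditional 95% intervals as bars. In iSuRe-Cre liver most points lie left of 1, whereas Itga1 is the gene farthest to the left in iSuRe-Cre heart.

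For iSuRe-HadCre against control in liver, 1 of the 21 members that passed the filter was at least 2-fold higher and 1 at least 2-fold lower, beside 3.31% and 4.38% of the 8128 genes tested (7.69% in either direction). The median log2 ratio of the members was 0.0313, beside -0.00681 over all genes tested. The higher member was Lama5 and the lower was Lama2, where 12 of the 14 UMIs of iSuRe-HadCre liver lay in 1 cell. Neither stayed past 2-fold under every alternative. Itga1 had a ratio of 0.775 (0.583 to 1.03) to control in this group, beside 0.74 (0.61 to 0.906) in iSuRe-Cre liver.

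For iSuRe-HadCre against iSuRe-Cre in liver, 6 of the 17 members that passed the filter were at least 2-fold higher and 0 at least 2-fold lower, beside 4.98% and 3.05% of the 8259 genes tested (8.03% in either direction). The median log2 ratio of the members was 0.759, beside 0.0908 over all genes tested. The higher members were Lama3, Lama5, Lamb1, Lamb2, Lamc1 and Itga4. The ratio was 2.19 (1.53 to 3.06) for Lamb1 and 2 (1.66 to 2.41) for Lamc1. These ratios fell to 1.29 without cells with Stab2 or Npr3 UMIs and to 1.31 with HTODemux, respectively, and Lama5 alone of the 6 stayed past 2-fold under every alternative. Within capillary-marked cells the ratios of Lamb1 and Lamc1 were 1.85 (1.12 to 2.93) and 1.8 (1.33 to 2.4), and there no member that passed the filter reached 2-fold. Lama5, and Lama2 with a ratio of 8.93 (3.89 to 20.6) on 14 and 13 UMIs, had too few UMIs to pass, as had Lama1 and Itgb4, with ratios of 2.64 (0.952 to 6.4) and 2.21 (0.876 to 4.94). Itga4 rested on 1 cell with 18 of 23 UMIs, and without it iSuRe-HadCre liver was at 7.32 CPM, below iSuRe-Cre liver.

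Liver was compared with heart within each genotype. In control, 5 of the 16 members that passed the filter were at least 2-fold higher and 0 at least 2-fold lower, beside 7.89% and 2.52% of the 7899 genes tested (10.4% in either direction). In iSuRe-Cre, 12 of the 30 members that passed the filter were at least 2-fold higher and 5 at least 2-fold lower, beside 11.5% and 4.97% of the 13105 genes tested (16.5% in either direction). In iSuRe-HadCre, 3 of the 18 members that passed the filter were at least 2-fold higher and 1 at least 2-fold lower, beside 4.32% and 3.58% of the 8278 genes tested (7.9% in either direction). The median log2 ratios of the members were 0.233, 0.374 and 0.296 in these 3 comparisons, beside 0.122, 0.14 and 0.011 over all genes tested. All 5 higher members in control and all 3 in iSuRe-HadCre fell short of 2-fold under at least 1 alternative. In iSuRe-Cre the ratios of Itga2b, Itga4, Itga8, Lamb1 and Lamc1 stayed past it under all 12 alternatives, as did that of Lamb1 in iSuRe-HadCre. Those of Itgb2 and Itgb7 in iSuRe-Cre did so in the 12 and 9 alternatives that gave a value. With 6 and 1 UMIs in iSuRe-Cre heart, however, these 2 passed the filter only through the liver group, so this carries no weight. Itga8 and Lama3 were at least 2-fold higher in liver in all 3 comparisons as given, but not under every alternative. The lowest ratios of Lama3 were 1.35 in control and 1.03 in iSuRe-HadCre, both with the HTODemux calls, and 1.63 in iSuRe-Cre when WPRE was required. Those of Itga8 were 1.69 in control with HTODemux and 0.473 in iSuRe-HadCre without cells with Stab2 or Npr3 UMIs. Within capillary-marked cells the ratios in control, iSuRe-Cre and iSuRe-HadCre were 3.77 (1.45 to 8.87), 6.15 (4.24 to 9.06) and 2.6 (1.51 to 4.3) for Lama3.

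Itga8 differed widely among the groups, at 9.24, 10.2 and 20 CPM in heart and at 27.2, 102 and 51.2 CPM in liver. The liver to heart ratio was 9.96 (7.97 to 12.6) in iSuRe-Cre and 2.95 (1.51 to 5.58) in control. Cells with an Itga8 UMI made up 5.75% of iSuRe-Cre heart and 45.5% of iSuRe-Cre liver, or 1.12% and 16.8% after thinning, at median depths of 16379 and 8765 UMIs. The erythroid shares were 5% and 0.175% at 55081 UMIs, so the unthinned share of iSuRe-Cre heart was near that background. Within capillary-marked cells Itga8 was at 6.1, 10.7 and 22.2 CPM in heart and at 49.1, 63.3 and 77.4 CPM in liver, and the iSuRe-Cre to control ratio in liver was 1.29 (0.732 to 2.47), against 3.74 (2.32 to 6.45) over the whole groups. In iSuRe-HadCre liver 20 of 35 UMIs lay in 1 cell with 64 UMIs of mesenchymal markers, and without it the level was 22 CPM.

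Itga8 lies at chr2:12106632-12301922 on the minus strand of GRCm38. Its flank chr2:12301945-12302194 is shown because of the liver to heart ratio of Itga8 in iSuRe-Cre, and it holds neither TGGGAA nor GGGCGG on either strand.
Itga8: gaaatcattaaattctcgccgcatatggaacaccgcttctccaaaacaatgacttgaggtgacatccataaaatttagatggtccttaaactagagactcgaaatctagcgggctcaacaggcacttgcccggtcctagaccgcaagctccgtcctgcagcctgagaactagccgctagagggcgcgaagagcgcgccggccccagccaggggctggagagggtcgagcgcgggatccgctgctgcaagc

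Itga9, a receptor of tenascin-C and VCAM1, was at 58.7, 74.1 and 85.4 CPM in heart and at 122, 151 and 124 CPM in liver, with liver to heart ratios of 2.07 (1.56 to 2.73), 2.04 (1.85 to 2.24) and 1.46 (1.13 to 1.87) in control, iSuRe-Cre and iSuRe-HadCre. Without cells with Stab2 or Npr3 UMIs the iSuRe-Cre ratio of Itga9 was 0.742, whereas within capillary-marked cells the ratios were 1.41 (0.845 to 2.23), 1.65 (1.41 to 1.91) and 1.53 (1.04 to 2.18). The vascular laminin chains had ratios below 1 over the whole groups. The ratios of Lama4 were 0.746 (0.621 to 0.891), 0.428 (0.397 to 0.461) and 0.534 (0.443 to 0.639), and those of Lamc1 0.798 (0.652 to 0.969), 0.435 (0.401 to 0.471) and 0.66 (0.546 to 0.793). Within capillary-marked control cells they were 0.889 (0.686 to 1.14) for Lama4 and 1.23 (0.953 to 1.56) for Lamc1, with intervals that include 1. Within capillary-marked iSuRe-Cre cells they were 0.512 (0.454 to 0.576) and 0.473 (0.414 to 0.538), and within those of iSuRe-HadCre 0.581 (0.441 to 0.752) and 0.652 (0.49 to 0.853), all below 1. The ratios of Lamb1 over the whole groups were 0.547 (0.398 to 0.736), 0.215 (0.187 to 0.247) and 0.36 (0.254 to 0.497). Those of Itga6 were 0.575 (0.474 to 0.691), 0.401 (0.376 to 0.428) and 0.504 (0.427 to 0.591), below 1 in each genotype.

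Leukocyte integrins were among the members higher in iSuRe-Cre liver than heart. Itgb2 was at 0.99, 0.723 and 0.645 CPM in heart and at 6.41, 8.24 and 4.39 CPM in liver, Itgal at 2.97, 2.77 and 0.645 CPM in heart and at 3.2, 6.96 and 1.46 CPM in liver and Itgam at 0, 0.843 and 1.61 CPM in heart and at 0, 5.89 and 0 CPM in liver. Itgam had 0 UMIs in control heart, control liver and iSuRe-HadCre liver, where a floor of 3 UMIs corresponds to 0.99, 4.81 and 4.39 CPM. In iSuRe-Cre heart 20 of the 23 Itgal UMIs lay in 1 cell with 213 UMIs of macrophage markers, and the liver to heart ratio of Itgal within capillary-marked iSuRe-Cre cells was 0.759 (0.253 to 1.92). That of Itgb2 in the same cells was 6.79 (2.45 to 21.5), on 14 and 6 UMIs. Neutrophil-lineage markers summed to 108, 22.4 and 35.8 CPM in heart and to 272, 2179 and 29.3 CPM in liver, led by S100a8, with Ltf and Lcn2 at 0 in at least 1 group. The macrophage list summed to 80.5, 60.8 and 71.5 CPM in heart and to 11.2, 191 and 60 CPM in liver, and the part of either in these levels was not tested.

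The other named members were low. Itgb5, which with Itgav binds vitronectin, was at 12.9, 10.5 and 19.3 CPM in heart and at 20.8, 10.3 and 8.79 CPM in liver. Itgb8, a receptor of latent TGF-beta, was at 4.62, 5.18 and 8.38 CPM in heart and at 16, 6.96 and 16.1 CPM in liver. Lama1, an alpha chain of early embryonic basement membranes, was at 1.65, 3.37 and 4.51 CPM in heart and at 6.41, 4.07 and 16.1 CPM in liver. Of its UMIs, 16 of 28 in iSuRe-Cre and 10 of 14 in iSuRe-HadCre heart lay in 1 cell each, as did 17 of 38 and 7 of 11 in the same groups of liver. None of these 3 exceeded 20.8 CPM in a group. Itgb3, the beta partner of Itga2b, was at 3.63, 2.05 and 2.9 CPM in heart and at 1.6, 4.28 and 1.46 CPM in liver, and Itgb7, a leukocyte beta subunit, at 0.66, 0.12 and 3.22 CPM in heart and at 4.81, 3.32 and 4.39 CPM in liver. The 12 members with fewer than 50 UMIs over the 6 groups included Lamb3, Lamc3, Itgb6, Itgb1bp2, Itga10, Itgax, Itgad, Itga7, Itga11, Itgae and Itgb2l.

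Genes that work with integrins and laminins were examined as 4 lists. Of 9 basement membrane partners, all were tested, and in iSuRe-Cre liver against control 0 were higher and 1, Col4a1, was lower, beside 3.89% and 6.74% of all genes tested, so the count was near the background. Col4a1, a collagen IV chain, was at 2183, 1817 and 2484 CPM in heart and at 1356, 660 and 1278 CPM in liver, and Col4a2 at 1036, 848 and 1202 CPM in heart and at 636, 330 and 668 CPM in liver, both lowest in iSuRe-Cre liver as Lama4, Lamb1 and Lamc1 were. Against iSuRe-Cre heart, 4 of the 9 were lower in iSuRe-Cre liver (Col4a1, Col4a2, Nid2 and Sparc) and Ntn4, a netrin that binds laminin, was higher, beside 4.97% of all genes lower and 11.5% higher. In liver against heart of the other genotypes, Fn1 and Sparc were lower in control and Nid2 in iSuRe-HadCre, beside 2.52% and 3.58% of all genes. Ntn4 was higher in both, beside 7.89% and 4.32%. Between the iSuRe livers Col4a2 was higher in iSuRe-HadCre, 1 of the 9 beside 4.98% of all genes. In heart 1 of the 9, Ntn4, was higher in iSuRe-Cre than in control and 0 were lower, beside 4.43% and 3.32% of all genes, and in iSuRe-HadCre 0 were past 2-fold, beside 7.37%.

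Against control, the shares of all genes past 2-fold in either direction were 7.75% for iSuRe-Cre and 7.37% for iSuRe-HadCre in heart, and 10.6% and 7.69% in liver. All 5 laminin receptors other than integrins (Dag1, Bcam, Rpsa, Sdc4 and Cd151) were tested, and 0 were past 2-fold against control in any iSuRe group. In liver Bcam was at least 2-fold above iSuRe-Cre in iSuRe-HadCre, 1 of the 5 beside 4.98% of all genes, at 97, 58.9 and 82.8 CPM in heart and at 80.1, 49.2 and 111 CPM in liver. Of 13 integrin activators and adaptors, 12 were tested in heart. None of them was past 2-fold in iSuRe-Cre, and 1, Fermt3, the kindlin of blood cells, was higher in iSuRe-HadCre, at 3.3, 3.61 and 7.09 CPM in heart and at 11.2, 10.4 and 5.86 CPM in liver. In liver 10 were tested, and 1, Tln2, was lower than control in both iSuRe groups, at 21.8, 17.3 and 33.5 CPM in heart and at 70.5, 31.9 and 33.7 CPM in liver. Of 11 other ligands, 8 and 9 were tested in iSuRe-Cre and iSuRe-HadCre heart and 7 in each liver comparison with control. In heart 1 and 3 of them were past 2-fold, and in liver 2 and 3. Vtn was past 2-fold against control in all 4 iSuRe groups, at 1.32, 19.6 and 8.06 CPM in heart and at 57.7, 8.56 and 2.93 CPM in liver, but these levels rested on few cells. In heart 90 of 163 iSuRe-Cre and 21 of 25 iSuRe-HadCre UMIs of Vtn lay in 1 cell each, and in control liver all 36 lay in 1 cell. Cdh1 was higher in iSuRe-HadCre than control heart on 19 and 2 UMIs, Vcam1 was lower there, and Tnc was lower than control in both iSuRe liver groups. Thbs1 was lower in iSuRe-HadCre than control liver, at 7.32 and 49.7 CPM on 5 and 31 UMIs, 12 of the 31 in 1 cell.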

How the data were processed

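Gene expression and hashtag UMI counts of 1 pooled library were used. The authors aligned the reads with Cell Ranger 7.1.0 to GRCm38 (Ensembl gene build 98, from the submitters' processing notes) with transgene sequences added, and deposited unfiltered, unnormalized UMI counts per barcode. Whether intronic reads were counted is not given in the sources used here.

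Of 2755147 barcodes, 14348 had 2000 to 75000 UMIs, more than 500 genes, and mitochondrial and haemoglobin shares below 5%. A cell joined a group with at least 25 UMIs of 1 hashtag (140 for hashtag 302) and the others below their minimum, which 2391 did, and ECs had log-normalized Cdh5 above 0.9. This left 1988 ECs in the groups. Hashtag doublets (186) and 134 cells in several non-endothelial gates were left out, and no other doublet caller was run. A further 7 hashtag and multiplexing features were not used.

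Counts were summed per group or gate and divided by the total, with intervals at the 95% level (scipy 1.17.1, Python 3.11.15). On simulated data, with 200 of 21951 genes changed 4-fold, 100% of the changed genes tested were recovered for iSuRe-Cre against control heart and 99.5% for iSuRe-HadCre against control liver, while 0.411% and 2.79% of the unchanged genes were past 2-fold. The changed genes were drawn from those well above the filter, and counts were Poisson draws. Spread between cells and animals was left out, so these shares do not measure error in the real groups. Seurat 5.3.0 was used for an alternative hashtag call. Named are members with at least 50 UMIs over the groups or the gates, of which 1 is not reported here. The members, gates and lists were chosen with earlier results of these data known, and the promoters shown after values were seen. Gene positions and overlaps are from GENCODE M21, flanks from RefSeq (GRCm38.p6), whose table held 25 of the 40 members. Alternatives covered hashtag calls, cell limits, scaling, makeup and the filter.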

Additional observations from a re-analysis of the deposited data

Results flagged for a closer look

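Several members had ratios on opposite sides of 1 under the same contrast in heart and in liver, or in different genotypes, each with an interval that left out 1. None of these differences was tested, because every group is 1 sample. The iSuRe-Cre to control ratio of Lama2 was 1.69 (1.08 to 2.74) in heart and 0.104 (0.071 to 0.153) in liver. The liver to heart ratio of Lama2 was 9.51 (5.7 to 16.3) in control and 0.585 (0.429 to 0.793) in iSuRe-Cre. In control liver 23 of its 47 UMIs lay in 1 cell, and without cells with Stab2 or Npr3 UMIs the control ratio was 1.65. The iSuRe-HadCre to iSuRe-Cre ratio of Itga8 was 1.95 (1.38 to 2.74) in heart and 0.503 (0.348 to 0.704) in liver, where 32 of 62 and 20 of 35 iSuRe-HadCre UMIs lay in 1 cell each. Within capillary-marked cells these ratios were 2.07 (1.43 to 2.97) and 1.22 (0.753 to 1.9), no longer on opposite sides of 1. The liver to heart ratio of Itgb1 was 0.796 (0.771 to 0.821) for iSuRe-Cre, whereas for iSuRe-HadCre it was 1.13 (1.04 to 1.21). Within capillary-marked cells the ratios of Itgb1 were 0.9 (0.858 to 0.943) and 0.983 (0.875 to 1.1), both below 1, the latter with an interval that includes 1.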

How the results depend on the processing

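Control and iSuRe-HadCre liver hold few cells and UMIs, and no setting measures the spread between animals. No paired analysis was possible because the labels give no replicate numbers and each group is 1 sample, so no replicate could be left out either. The count of 33 members highest outside the ECs was 32 to 34 under every gate alternative. The numbers of members past 2-fold that moved by over 1.5 times follow, with the cause not tested except that no filter adds low genes and narrower cell choices leave fewer cells.

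Beside each count stands the share of all genes past 2-fold under the same setting. Without a filter on low counts, 15, 15 and 14 members passed in iSuRe-Cre against control, iSuRe-HadCre against control and iSuRe-HadCre against iSuRe-Cre heart (from 2, 5 and 6), beside 25.3%, 23.4% and 26.9% of all genes (from 7.75%, 7.37% and 9.34%). In the same comparisons in liver 22, 10 and 23 passed (from 7, 2 and 6), beside 37.9%, 29.2% and 35.5% (from 10.6%, 7.69% and 8.03%). The counts in liver against heart were then 23 in control and 16 in iSuRe-HadCre (from 5 and 4), beside 34.5% and 31.5% (from 10.4% and 7.9%). For iSuRe-Cre against control heart, 5 passed with HTODemux (8.67%), 7 with the mean over cells (10.4%), and 1 with a WPRE limit (7.57%) or size factors (7.81%). For iSuRe-HadCre against control heart, 2 passed with HTODemux (5.3%) and 3 with size factors (6.43%). For iSuRe-Cre against control liver, 4 passed with 1 Cdh5 UMI (9.98%) and 4 with no Stab2 and no Npr3 UMI (9.62%). For iSuRe-HadCre against control liver, 1 passed with a hashtag minimum of 10 UMIs (5.8%), a mitochondrial limit of 10% (7.46%), or no Stab2 and no Npr3 UMI (10.3%), and 4 with a minimum of 50 UMIs (8.57%). For liver against heart, iSuRe-Cre had 8 with a WPRE limit (13.2%) and 11 with no Stab2 and no Npr3 UMI (16.5%, as before), control had 2 with the latter (11%), and iSuRe-HadCre had 8 with HTODemux (7.01%) or 1 Cdh5 UMI (8.58%).

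Another 2 alternatives were chosen after seeing the data. Within the Tcf15 and Fabp4 gate, 4, 1 and 0 members passed in iSuRe-Cre against control, iSuRe-HadCre against control and iSuRe-HadCre against iSuRe-Cre liver (10.9%, 11.3% and 7.95%), and 3 and 11 in liver against heart of control and iSuRe-Cre (10.6% and 13%). Without the cell holding most UMIs of each gene, 4 and 1 passed in the first of these comparisons and the next (9.48% and 5.96%), and 3 in control liver against heart (8.9%). In liver the balance of all calls turned with that setting, from 36.6% to 71.7% higher in iSuRe-Cre against control, from 43% to 60.6% in iSuRe-HadCre against control and from 62% to 35.6% between the iSuRe groups, as it takes away more of the smaller group. With HTODemux it turned from 57.2% to 37.6% in iSuRe-Cre against control heart, and hashtag minimums of 10 and 50 UMIs gave 48.4% and 48.3% there. With no filter on low counts it turned from 62% to 29% between the iSuRe liver groups and from 54.7% to 36.2% in iSuRe-HadCre liver against heart. The latter was 33.7% without the cell holding most UMIs of each gene, a setting that moved control liver against heart from 75.8% to 48.4%.

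Some ratios turned. Itga8 in iSuRe-HadCre against control heart was 0.908 with a hashtag minimum of 50 UMIs, and in iSuRe-HadCre liver against heart 0.879 with HTODemux and 0.473 with no Stab2 and no Npr3 UMI. Lama5 in iSuRe-HadCre against control liver was 0.867 with the mean over cells. In iSuRe-Cre liver against heart, Itgal was 0.799 and Itga9 0.742 with no Stab2 and no Npr3 UMI, and Itgal was 0.759 and Itgb1bp2 1.12 in the Tcf15 and Fabp4 gate. Itga4 in iSuRe-HadCre against iSuRe-Cre liver was 0.777 in that gate and 0.547 without its highest cell. Of the other named ratios, not counting the 2 settings chosen later, 472 values moved by less than their counting interval and 60 by more. Size factors moved the median log2 ratio of all genes from 0.217 to 0.026 in iSuRe-HadCre against iSuRe-Cre heart, and from 0.133 to 0.00986 against control heart.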

Other observations

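A further 5716 ECs carried no single hashtag and belong to no group. Over their 34932813 UMIs, Itgb1 was at 807 CPM, Itga6 at 212, Itga1 at 127, Lama4 at 158, Lamc1 at 133 and Lamb1 at 78 CPM. Itga8 was at 19.2 CPM.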
